A study of Mus musculus with 24 samples.

Results

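P2ry12, P2ry13, Gpr34, Cx3cr1, Csf1r, Tmem119, Siglech, Sall1 and Olfml3 are 9 marker genes of homeostatic microglia, the resident macrophages of the brain in their unstimulated state. They were chosen by name as known markers of that state, and all 9 were found among the 24411 genes listed in each of 6 tables of expression values. In the microglia tables they describe the state of the cells, and in the astrocyte tables those that are low in astrocytes can point to microglia left in the cultures.

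Homeostatic microglia survey their surroundings with receptors for nucleotides, chemokines and lipids, and they depend on the growth factor receptor encoded by Csf1r for survival and on TGF-β signalling for their identity. On exposure to bacterial lipopolysaccharide (LPS), which acts through Toll-like receptor signalling, microglia switch on cytokine and chemokine genes, and loss of the homeostatic markers is widely used as a sign of that switch. The ligands of these receptors, among them Csf1, Il34 and Cx3cl1, come largely from other cells of the brain, astrocytes included.

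The study asked whether astrocytes and microglia from wild-type (WT) mice and from mice carrying the SOD1G93A transgene, a mutant human gene that causes motor neuron disease, differ at rest or after activation, and measured polyA RNA in 3 samples per group. Microglia were quiescent (PBS, WT) or treated with LPS at 50 ng/ml (WT and SOD1G93A). Astrocytes of both genotypes received PBS (quiescent) or a mixture of C1q (400 ng/ml), TNFα (30 ng/ml) and IL-1α (3 ng/ml), factors that microglia release and that turn astrocytes reactive (activated). Quiescent SOD1G93A microglia were not analysed here. The labels give no treatment time and do not say whether replicates came from separate animals, so the p-values measure only the spread between these samples. All cells were primary postnatal cells in serum-free culture. Microglia were isolated through Cd11b with magnetic beads from whole brains at postnatal day 7 to 10, after perfusion to remove blood cells, and kept with TGF-β2, IL-34 and cholesterol, so the medium held ligands for Csf1r and for the TGF-β receptors in every microglia group. Astrocytes were immunopanned from forebrain cortex at postnatal day 5, with removal of CD45-positive cells, endothelial cells and O4-positive cells of the oligodendrocyte lineage, and then selection for HepaCAM.

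Expression is given as RPM, the reads of a gene in a library scaled to 1000000 counted reads, on the same scale in all 21 libraries, which held 2016139 to 11570122 reads (median 5098168). The cell type labels were checked against marker genes. Summed over 15 genes shared by myeloid cells, quiescent WT microglia held 15082, 16031 and 15143 RPM in replicates 1, 2 and 3, and quiescent WT astrocytes held 233, 339 and 416. Summed over 10 astrocyte genes, the same microglia held 169, 156 and 167 RPM and the astrocytes 5122, 5519 and 6349. Both labels therefore match their markers, with a low level of the other cell type's transcripts in each. Quiescent WT astrocytes also held 3149, 3063 and 2972 RPM summed over 11 oligodendrocyte lineage genes, most of it Olig1 (mean 1799) and Olig2 (mean 868).

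Replicates were compared as a whole by the chi-square per degree of freedom between pairs of libraries, which ranged from 1.48 to 20.3. SOD1G93A LPS replicate 3 stood apart from its group (15.7 against replicate 1 and 20.3 against replicate 2), and so did WT LPS replicate 1 (13.97 and 12.8). Among quiescent astrocytes, WT replicate 3 (8.97 and 6.50) and SOD1G93A replicate 1 (6.47 and 9.87) were the farthest from their groups. Some values are therefore also given without one of these libraries.

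In quiescent WT microglia the members spanned a wide range of levels. Per kilobase of annotated exon, Csf1r was the most abundant at 446 ± 5.70 RPM (SD, n = 3), followed by the fractalkine receptor Cx3cr1 at 314 ± 15.7. The membrane protein gene Tmem119 reached 171 ± 9.18 and Olfml3, which encodes a secreted olfactomedin-like protein, 155 ± 6.11. With the length of the longest transcript in place of all exons this last pair was nearly equal, at 177 and 175. The ADP receptor genes P2ry12 and P2ry13 stood at 29.0 ± 2.41 and 25.9 ± 1.32, a gap within their spread. The transcription factor gene Sall1 reached 23.1 ± 0.942, the lysophospholipid receptor gene Gpr34 11.1 ± 4.03, and Siglech, a sialic acid-binding lectin gene, 1.89 ± 0.283. The gap between every other pair of neighbours in this order exceeded the sum of their SDs.

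After LPS the order in WT microglia was different. Csf1r still led at 131 ± 4.61 RPM per kilobase, ahead of Cx3cr1 at 57.7 ± 0.848 and Olfml3 at 26.1 ± 3.05. Sall1, at 9.13 ± 1.21, lay above Tmem119, at 5.98 ± 1.08. P2ry12 (1.75 ± 0.387), P2ry13 (1.68 ± 0.239) and Siglech (1.41 ± 0.196) did not differ beyond their spread between neighbours within these 3, and Gpr34 lay below them at 0.677 ± 0.130.

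**Figure D1:**
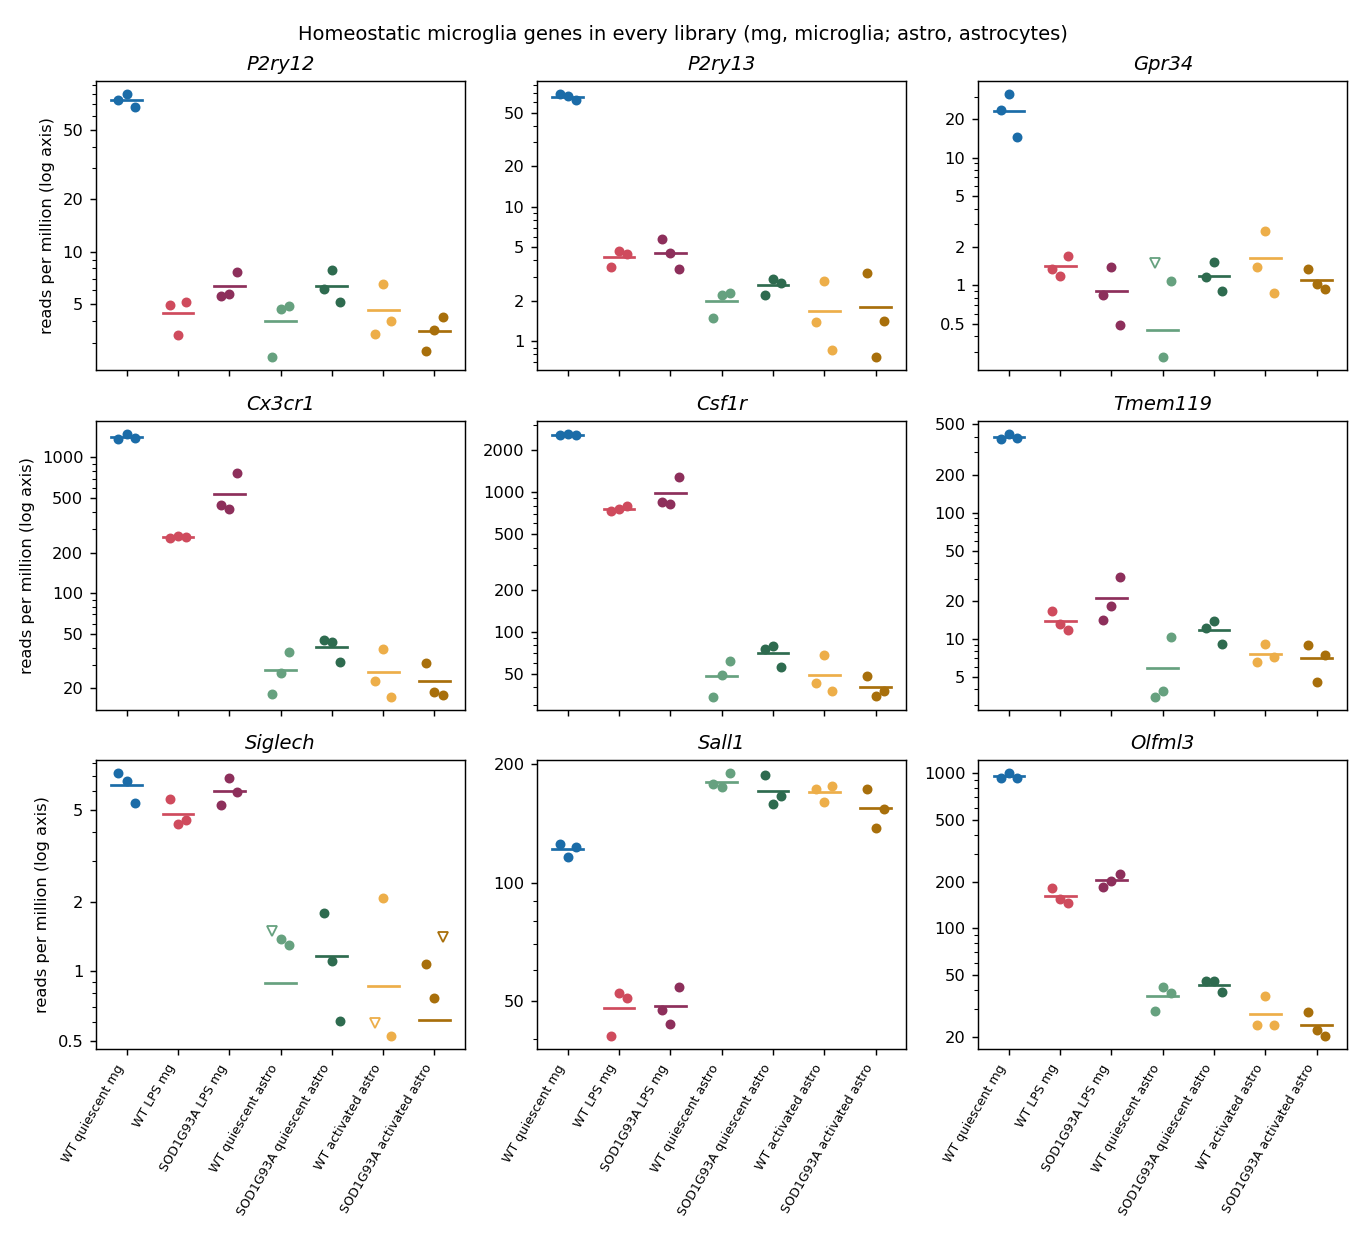
RPM of each member in every library (log axis), by group, with a bar at the mean of 3 libraries; an open triangle is a library with 0 reads, drawn at the level of 3 reads as an upper limit. Tmem119 lies at 383 to 421 in quiescent WT microglia and at 11.8 to 16.6 after LPS, while Siglech overlaps between these groups and Sall1 is as high in astrocytes as in microglia or higher.

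The comparison of LPS with quiescent WT microglia asked how the members respond to activation. With LPS, 8 of the 9 members fell, where a call needed an adjusted p under 0.001 and more than a 2-fold change (limma), and in these 8 no LPS library reached the level of a quiescent one. Over all 10866 genes tested, 20.8% were called, 10.6% were called lower and 32.3% were lower without overlap between the groups. DESeq2 and edgeR each called 8 members as well. The median log2 change of the 9 members was −2.36, against 0.00483 over all genes. In bulk RNA, fewer cells with a transcript and less of it per cell cannot be told apart.

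Both ADP receptor genes fell steeply. P2ry12, the receptor that guides microglial processes towards released nucleotides, measured 74.0, 79.98 and 67.7 RPM in quiescent replicates 1, 2 and 3 and 4.93, 3.33 and 5.13 after LPS. All LPS libraries lay far below all quiescent ones, and P2ry12 fell by 3.81 on the log2 scale (SE 0.17, adjusted p = 1.83e-08), 13.99-fold. P2ry13 measured 68.5, 66.3 and 62.0 in quiescent libraries and 3.57, 4.71 and 4.49 after LPS, again without overlap. It fell by 3.69 (SE 0.15, adjusted p = 1.03e-08), 12.9-fold.

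Gpr34 measured 23.7, 31.4 and 14.6 RPM in quiescent libraries and 1.35, 1.18 and 1.71 after LPS. The LPS values rest on 11, 6 and 8 reads, and the quiescent libraries differed from each other more than for any other member in that group. Gpr34 fell by 3.62 (SE 0.29, adjusted p = 1.77e-06), 12.3-fold.

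The chemokine and growth factor receptor genes stayed well expressed after LPS. Cx3cr1, the receptor for neuronal and astrocytic fractalkine, measured 1361, 1495 and 1387 RPM in quiescent libraries and 256, 264 and 259.9 after LPS. The 3 libraries of each group were close to each other, and Cx3cr1 fell by 2.23 (SE 0.08, adjusted p = 4.74e-09), 4.68-fold. Csf1r, the receptor for CSF1 and IL-34, measured 2553, 2612 and 2556 in quiescent libraries and 735, 752 and 787 after LPS. It fell by 1.55 (SE 0.08, adjusted p = 4.48e-08), 2.92-fold, less than the receptor genes P2ry12, P2ry13, Gpr34 and Cx3cr1.

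Of the surface protein genes Tmem119 fell and Siglech was not called. Tmem119, a membrane protein gene used to tell microglia from other macrophages, measured 383, 421 and 386 RPM in quiescent libraries and 16.6, 13.1 and 11.8 after LPS. It fell by 4.62 (SE 0.12, adjusted p = 5.32e-10), 24.6-fold, the steepest fall among the members. Siglech measured 7.19, 6.67 and 5.33 in quiescent libraries and 5.54, 4.32 and 4.49 after LPS, so the groups overlapped. Its log2 change was −0.19 (SE 0.21, 95% interval −0.66 to 0.27, adjusted p = 0.451), which leaves a fall as large as that of any other member outside its interval.

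Sall1, a transcription factor that maintains microglial identity, measured 126, 116 and 123 RPM in quiescent libraries and 40.8, 52.6 and 50.9 after LPS. It fell by 1.13 (SE 0.12, adjusted p = 1.52e-05), 2.19-fold, close to the 2-fold limit. Without WT LPS replicate 1, its lowest library, the log2 change was −0.998, so that call was lost and 7 members were called.

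Olfml3 measured 934, 999 and 933 RPM in quiescent libraries and 182, 154 and 146 after LPS. The groups were far apart, and Olfml3 fell by 2.36 (SE 0.09, adjusted p = 8e-09), 5.14-fold.

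**Figure D2:**
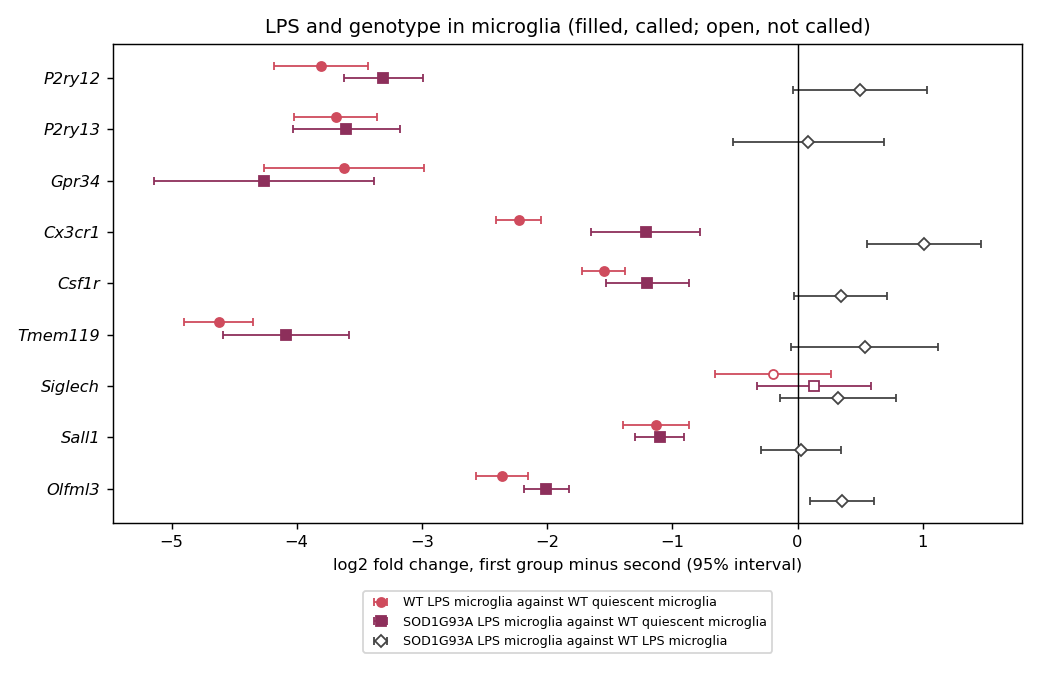
Log2 fold change of each member with its 95% interval in the 3 microglia comparisons (limma); filled points were called and open points were not. The 8 filled points of WT LPS against quiescent microglia run from −4.62 for Tmem119 to −1.13 for Sall1, and no point is filled in SOD1G93A LPS against WT LPS microglia, where Gpr34 was not tested.

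Positions on GRCm38 show what the members share and where their counts may be mixed with those of a neighbour. P2ry12 (chromosome 3, 59216272 to 59262871) and P2ry13 (chromosome 3, 59207892 to 59210882) are next to each other on the minus strand, both inside Med12l on the plus strand. Med12l stood at 5.88 RPM in quiescent WT microglia and 44.0 in quiescent WT astrocytes, and shares 9 exon bases with P2ry12 and 0 with P2ry13. Csf1r (chromosome 18, 61100598 to 61132149, plus strand) shares 873 exon bases with Hmgxb3 on the other strand. Hmgxb3 stood at 49.1 RPM in quiescent WT microglia, far under Csf1r, but at 43.1 in quiescent WT astrocytes, where the mean of Csf1r was 48.4. The libraries were strand-specific, but whether the counting used the strand is not given in the labels or methods read here, and the authors' pipeline options, kept elsewhere, were not used here, so the low Csf1r values in astrocytes are uncertain.

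Gpr34 (chromosome X, 13632089 to 13640858, plus strand) lies within Cask on the other strand and shares 0 exon bases with it. Cx3cr1 (chromosome 9, 119901616 to 120069879, minus strand) has long annotated limits that overlap Csrnp1 and 4 other named coding genes, with 0 exon bases shared, and share 78 with the antisense transcript Gm33858, which is not in the tables. Csrnp1 rose with LPS (log2 change 3.07, adjusted p = 2e-08) while Cx3cr1 fell. Tmem119 (chromosome 5, 113793729 to 113800516, minus strand) has as its nearest gene on one side Selplg, which also fell (−2.05, adjusted p = 7.52e-09). Sall1 (chromosome 8, 89027235 to 89044162, minus strand), Siglech (chromosome 7, 55768178 to 55778925, plus strand) and Olfml3 (chromosome 3, 103722222 to 103738001, minus strand) overlap no other annotated gene.

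Since P2ry12 and P2ry13 are neighbours and fell together, the 120 bases before their RefSeq starts are shown, with those of Olfml3, which fell less, beside them. The RefSeq promoter table used (GRCm38.p6) held 6 of the 9 members. The 250 bases before each start were searched on both strands for AGGAAG and GAGGAA, forms of the purine-rich motif of ETS factors such as PU.1, which overlap in GAGGAAG. Of 32851 promoters, 29.48% held AGGAAG and 23.25% held GAGGAA. Capitals mark a match. P2ry12 holds AGGAAG at −52 from its start, and P2ry13 holds AGGAAG at −47 and GAGGAA at −48. Olfml3 has no match in the bases shown and AGGAAG on the other strand at −250. Among the other promoters, Sall1 holds AGGAAG at −181 from 1 of its 3 starts, and Cx3cr1 and Siglech hold no match. The windows are chr3:59262986-59263105, chr3:59210883-59211002 and chr3:103738002-103738121, all on the minus strand, and a match is a description, not a binding site.
P2ry12: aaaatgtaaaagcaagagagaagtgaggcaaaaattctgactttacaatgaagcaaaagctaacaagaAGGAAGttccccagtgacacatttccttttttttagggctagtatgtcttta
P2ry13: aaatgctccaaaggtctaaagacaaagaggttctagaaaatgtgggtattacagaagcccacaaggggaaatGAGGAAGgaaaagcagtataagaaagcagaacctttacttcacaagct
Olfml3: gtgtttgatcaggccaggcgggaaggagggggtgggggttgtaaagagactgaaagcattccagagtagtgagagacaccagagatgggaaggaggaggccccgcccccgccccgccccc

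For each member, the gene with the most similar profile over the 7 conditions was found among 10998 genes by the root mean square difference of centred mean log2 levels. The closest matches were Rnf187 to Sall1 (0.0491), Cyth4 to Csf1r (0.0542), Parvg to Olfml3 (0.0641), Plxdc1 to P2ry13 (0.0762) and Osbpl8 to Siglech (0.0819). P2ry12 (0.174) and Gpr34 (0.259) were both closest to Notch4, Cx3cr1 to Clec5a (0.176) and Tmem119 to Plau (0.233). Plau, the urokinase gene, had mean levels of 634 RPM in quiescent WT microglia, 24.3 after LPS and 9.14 in quiescent WT astrocytes, and fell with LPS by 4.51 (adjusted p = 1.99e-09). Nearest to each other among the members themselves were Cx3cr1 and Csf1r (0.245), and Sall1 was far from every other member (at least 1.47, from Gpr34).

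Other genes known from homeostatic microglia moved mostly the same way in WT microglia. Of 22 tested, 14 fell and 1 rose with LPS, with a median log2 change of −1.67. Hpgd, which degrades prostaglandins, fell from a mean of 595 to 9.27 RPM (−5.77, adjusted p = 3.81e-11), and the transporter gene Slco2b1 fell by 4.82 (adjusted p = 1.03e-09). Lpcat2 was at 0.19 (adjusted p = 0.0822).

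Genes around the members' receptors changed in both directions. Of 10 other purinergic receptor and ectonucleotidase genes, 3 were called, all higher. The adenosine receptor genes Adora2a (6.84, adjusted p = 2.17e-09) and Adora2b (4.07, adjusted p = 4.01e-06) led, while Nt5e (−1.07) and Adora3 (−0.66) were not called. Of the ligand genes, the 2 tested both rose, Cx3cl1 by 2.40 (adjusted p = 7.48e-06) and Csf1 by 1.60 (adjusted p = 6.54e-07), and Il34 stayed under the limit of testing at a mean of 0.583 and 0.667 RPM. Of 6 genes of the Siglec family and its adaptors, 2 rose and 2 fell. Siglece (4.21) and Siglec1 (2.66) rose, and Tyrobp, an adaptor of Siglech, fell by 1.28 (adjusted p = 2.42e-06). Siglecf fell by 1.98, a call lost without quiescent replicate 2 (−1.93) or 3 (−1.96).

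Of 14 TGF-β pathway genes, 5 fell and 1 rose, with a median of −0.62. The receptor gene Tgfbr1 fell by 2.45 (adjusted p = 1.84e-07) and the ligand gene Tgfb2 rose (3.64, adjusted p = 2.15e-05). Tgfb3, at −2.46, had an adjusted p of 0.0014 with limma and was called by DESeq2 (−2.57), by edgeR (−2.62) and without WT LPS replicate 1 (−1.87) or 3 (−2.88), and Itgb8 was at 1.08 (adjusted p = 0.0401). Of 10 other transcription factor genes of the lineage, 4 fell and 2 rose. Mef2c fell by 2.42 (adjusted p = 1.16e-07), while Cebpb (2.00) and Maf (1.97) rose.

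Of 15 general myeloid genes, 4 fell and 1 rose, with a median log2 change of −0.27, and their sum was 14063, 12748 and 12626 RPM in the LPS libraries. Laptm5 fell by 1.78 and C1qa by 1.53, Cd14, the LPS co-receptor gene, rose by 2.47, and Fcer1g was at 0.80, not called at the 2-fold limit. Cd14 alone made up 4903, 4567 and 4495 RPM of the sums after LPS, against 1004, 929 and 984 RPM in quiescent libraries. The sum of these genes after LPS thus rests in large part on a gene that rose. All 12 activation genes rose, with a median of 7.07, led by Nos2 (7.65) and Saa3 (7.58), with Tnf (4.66) and Ccl2 (5.01) lowest. The sum of these 12 was 376, 290 and 375 RPM in quiescent libraries and 34485, 34970 and 34851 after LPS. All 8 cell cycle genes fell, with a median of −2.97, and whether the members' fall is tied to any of these groups was not tested.

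Monocyte markers and most border macrophage markers were low in both groups. Of 6 monocyte genes, Ly6c2 (4.58), Vcan (2.78) and Ccr2 (1.82) were called higher, Plac8 and Chil3 had a mean of 0 reads after LPS, and the sum was 26.0, 38.1 and 34.0 RPM after LPS against 5.41, 4.31 and 7.35 before. The Ccr2 call was lost without an intensity trend in limma (adjusted p = 0.00234) and without quiescent replicate 1 (1.71) or 2 (1.59) or LPS replicate 2 (1.69) or 3 (1.83). The sum of 10 border macrophage genes was 489, 561 and 539.6 RPM in quiescent libraries and 767, 833 and 855.5 after LPS, nearly all of it from Stab1 (means 402 and 147), Siglec1 (87.8 and 482) and Ms4a7 (34.9 and 184.9). Of these 10, 5 were tested. Siglec1 and Ms4a7 (2.60) rose, Stab1 fell by 1.23, and Mrc1 was at −2.88 (adjusted p = 0.00435) and was called by DESeq2 (−3.07, adjusted p = 0.00059). Lyve1 and Cd163, also on this list, had 0 reads in both groups. The part of these cells in the members' values was not tested.

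The comparison of SOD1G93A with WT microglia after LPS asked whether genotype changes the activated state. None of the 8 members tested was called by limma, DESeq2 or edgeR (0 each), and 2, Cx3cr1 and Olfml3, had an unadjusted p under 0.05. Over all 10679 genes 0% were called by limma, 930 had an unadjusted p under 0.05, DESeq2 called 2 and edgeR 0. All 8 members had higher means in SOD1G93A cells (means of log2 values, as in each such count below), with a median log2 difference of 0.35 against 0.00784 over all genes. For 4 of them the groups did not overlap, against 9.09% of all genes that were higher without overlap. Gpr34 was under the limit of testing, with 5, 16 and 2 reads in SOD1G93A libraries. Its mean was lower in SOD1G93A cells (0.908 RPM, against 1.41 in WT), with overlap.

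Cx3cr1 showed the widest difference. It measured 444, 417 and 769 RPM in SOD1G93A LPS replicates 1, 2 and 3 and 256, 264 and 259.9 in WT. All SOD1G93A libraries were above all WT libraries, and replicate 3 was far above the other two. The log2 difference was 1.01 (SE 0.20, adjusted p = 0.571), and 0.75 without that library.

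Csf1r measured 845, 817 and 1282 RPM in SOD1G93A libraries and 735, 752 and 787 in WT, without overlap. Its difference was 0.35 (SE 0.16, adjusted p = 0.577), and 0.15 without SOD1G93A replicate 3. P2ry12 measured 5.58, 5.70 and 7.67 against 4.93, 3.33 and 5.13, a difference of 0.50 (SE 0.24, adjusted p = 0.577). Olfml3 measured 185, 203 and 226 against 182, 154 and 146, a difference of 0.35 (SE 0.11, adjusted p = 0.571). In both, every SOD1G93A library was higher, and without replicate 3 the values were 0.37 and 0.30. Tmem119 measured 14.03, 18.2 and 30.7 against 16.6, 13.1 and 11.8, so the groups overlapped, with a difference of 0.53 that was 0.24 without replicate 3. Siglech (0.32), P2ry13 (0.08) and Sall1 (0.03) overlapped between the groups too, and without SOD1G93A replicate 3 Sall1 was at −0.04. Without WT LPS replicate 1 Sall1 was at −0.11 and P2ry13 at −0.05, and without SOD1G93A replicate 1 P2ry13 was at −0.10.

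SOD1G93A replicate 3 also differed in its activation genes. Their sum was 33294, 33829 and 20314 RPM in SOD1G93A replicates 1, 2 and 3, and 11 of the 12 had lower means of log2 values than in WT. Nos2 measured 415, 427 and 48.2 in these libraries, and its difference from WT of −1.25 was −0.20 without replicate 3. Without that library 6 of the 12 activation genes were higher. The sum of the general myeloid genes was 12860, 12838.5 and 13138.5, and the sum of the astrocyte genes 184, 231 and 139. Cd14 made up 4279, 4347 and 3492 RPM of these myeloid sums. Of the other homeostatic genes 19 of 22 were higher, among them Ecscr (0.88) and Rnase4 (0.66), and 15 were higher without replicate 3; these 2 genes were picked after the values were seen. The part of the lower activation genes of replicate 3 in the members' values was not tested.

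SOD1G93A LPS microglia were also set against quiescent WT microglia, a comparison that shares its quiescent libraries with the WT response and changes genotype and treatment together. Again 8 members fell, without overlap, against 7.51% of all 10921 genes called lower and 30.2% lower without overlap, and DESeq2 and edgeR called 8 each. The steepest falls were those of Gpr34 (−4.26, with as few as 2 reads in a SOD1G93A library), Tmem119 (−4.09), P2ry13 (−3.605) and P2ry12 (−3.31). Olfml3 fell by 2.01 and Sall1 by 1.10, and Siglech was at 0.13 (adjusted p = 0.612). Csf1r fell by 1.20 (adjusted p = 0.000139) and Cx3cr1 by 1.21 (adjusted p = 0.000676).

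The calls of Cx3cr1 and Csf1r in that comparison were the weakest. Both were lost without an intensity trend in limma (adjusted p = 0.00577 and 0.00189) and without quiescent replicate 1, 2 or 3, which left 6 members called. The values of Cx3cr1 were then −1.26, −1.16 and −1.23, and those of Csf1r −1.22, −1.17 and −1.21. The call of Cx3cr1 was also lost without SOD1G93A replicate 1 (−1.11) or 2 (−1.06), but not without replicate 3 (−1.47).

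In astrocyte cultures 8 of the 9 members were low in all 4 groups. As a percent of the mean in quiescent WT microglia, quiescent WT astrocytes held from 1.48% (Tmem119) to 13.9% (Siglech, at 0, 1.37 and 1.30 RPM) without Sall1, and the sum of these 8 members was 2.27%. The same sum was 3.21% in quiescent SOD1G93A astrocytes, 2.18% in activated WT astrocytes and 1.82% in activated SOD1G93A astrocytes. The sum of general myeloid genes stood at 2.14%, 3.11%, 2.65% and 2.45% in the same order, so the 2 sums were at a like level. Single members spread wider, with Siglech at 18.2% in quiescent SOD1G93A and Gpr34 at 7.06% in activated WT astrocytes. Most of the members' sum was Csf1r, which is uncertain here, Olfml3 and Cx3cr1 (means 48.4, 36.4 and 27.1 RPM in quiescent WT astrocytes). P2ry12 was at 5.42% in quiescent WT astrocytes, at 2.48, 4.67 and 4.86 RPM, which is 89.7% of its mean in LPS-treated WT microglia. With TMM scaling over all libraries P2ry12 was at 3.75% in these astrocytes and 6.73% in the LPS-treated microglia, and the sum of the 8 members at 1.57% in quiescent WT astrocytes.

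Sall1 went against the use of the members as a measure of microglia in these cultures. It measured 178, 175 and 189.9 RPM in quiescent WT astrocytes, above its 126, 116 and 123 in quiescent WT microglia. In the astrocytes it was the most abundant member per kilobase (34.4 ± 1.50, against 8.39 ± 2.42 for Csf1r). Its level was 149% of that in quiescent WT microglia in quiescent WT astrocytes, 140.5% in SOD1G93A ones, 139.9% in activated WT and 128% in activated SOD1G93A astrocytes. With TMM scaling these were 102%, 94.4%, 95.7% and 89.1%, so which cell type held more depends on the scaling, while all astrocyte groups kept a level near that of microglia.

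**Figure D3:**
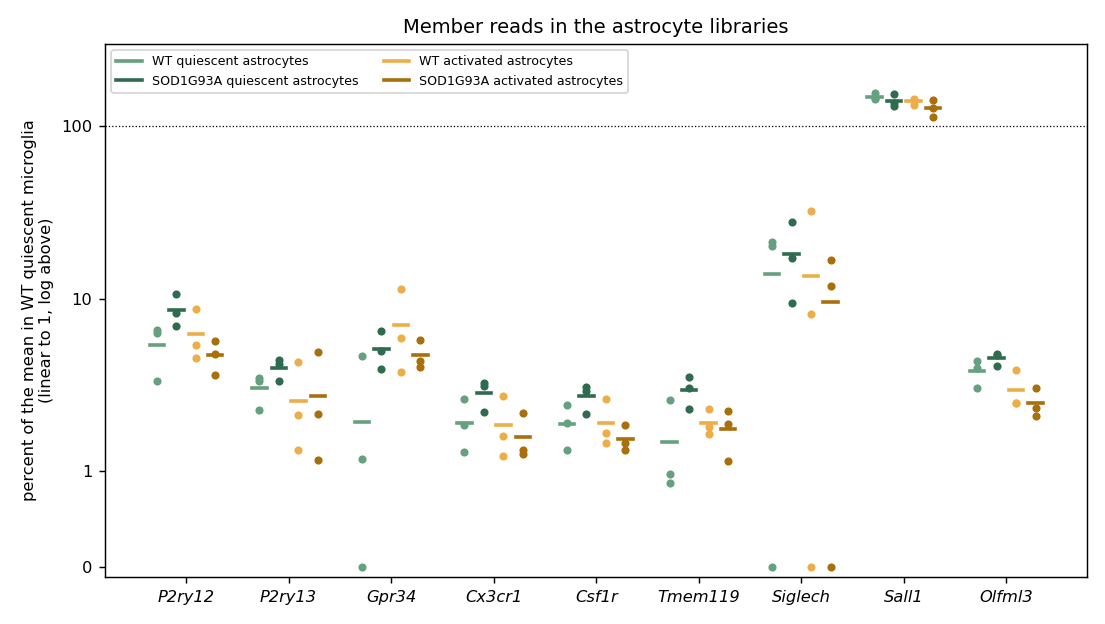
Level of each member in the astrocyte groups as a percent of its mean in quiescent WT microglia (axis linear up to 1 and log above), with each library as a point and a bar at the mean of 3. Sall1 lies near or above 100%, at 149% in quiescent WT astrocytes, and Tmem119, Cx3cr1 and Csf1r lie near 2% there.

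The comparison of activated with quiescent WT astrocytes asked whether the members' reads in these cultures moved with IL-1α, TNFα and C1q. Of 6 members tested 0 were called by limma, DESeq2 or edgeR, and 0 had an unadjusted p under 0.05. Over all 12336 genes 11.5% were called by limma and 5774 had an unadjusted p under 0.05. Cx3cr1 measured 18.4, 26.1 and 36.9 RPM in quiescent replicates 1, 2 and 3 and 22.6, 38.7 and 17.4 in activated ones. Csf1r measured 34.2, 48.9 and 62.1 and then 42.8, 67.7 and 37.4, and in both genes the groups overlapped, with differences of −0.05 and 0.04. Tmem119 was at 0.55, P2ry12 at 0.22, Sall1 at −0.06 and Olfml3 at −0.36, all overlapping between the groups. For Tmem119 the overlap came from quiescent replicate 3 alone (10.3 RPM, against 3.47 and 3.85 in replicates 1 and 2). Its activated replicates 1, 2 and 3 measured 6.54, 9.16 and 7.13. Gpr34, Siglech and P2ry13 had means under the limit of testing. Gpr34 measured 0, 0.275 and 1.08 RPM in quiescent replicates (at most 10 reads) and 1.39, 2.66 and 0.870 in activated ones (at most 18 reads), with overlap, and the other two overlapped as well.

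The genes for the ligands of member receptors rose in activated WT astrocytes. Il34, whose product binds CSF1R, rose from a mean of 2.30 to 36.2 RPM (log2 change 3.89, adjusted p = 1.04e-07). Csf1 rose from 58.3 to 362 (2.67, adjusted p = 8.18e-08) and Cx3cl1 from 86.7 to 289.9 (1.80, adjusted p = 7.78e-06). All 3 ligand genes of the list thus rose. Genes of other cells moved between the same libraries. The sum of the 11 oligodendrocyte lineage genes was 1128, 1163 and 1102 RPM in activated libraries against the 3149, 3063 and 2972 of quiescent ones, and 4 of 9 tested, 3 of 10 astrocyte genes and all 8 cell cycle genes were called lower. The sum of 8 neuron genes was 394 to 447 RPM in activated libraries and 756 to 985 in quiescent ones. Most of it was Map2 (means 384 and 872), and of 5 tested 1 was called higher and 1 lower. Other markers rose. Of those tested, the 1 endothelial and the 1 monocyte gene were called higher, and of 6 pericyte and fibroblast genes 2 were called higher and 2 lower. The sum of 6 endothelial genes was 8.93, 9.896 and 13.4 RPM in quiescent libraries and 137, 148 and 153 in activated ones. Nearly all of it was Flt1 (means 8.85 and 144). Kdr was at 1.60 and 0.841, Pecam1 at 0.164 and 1.69, and Cldn5 had 0 reads in both groups. The part of any of these other cells in the members' and ligand genes' values was not tested. Of 19 other homeostatic genes, Gas6 (1.48) and Nav3 (1.29) rose and Entpd1 fell by 1.57, and of 14 general myeloid genes Cd14 (1.36) and Cyba (1.15) rose. Apart from Gas6 these calls were lost without an intensity trend. Single libraries also ended the calls of Entpd1 (without quiescent replicate 2, −1.57), Nav3 (without quiescent replicate 2, 1.14, or activated replicate 1, 1.20, or 3, 1.27) and Cyba (without quiescent replicate 2, 1.14, or activated replicate 1, 1.17, or 2, 1.08). These 5 genes were picked after the values were seen.

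Between genotypes in quiescent astrocytes, limma, DESeq2 and edgeR called 0 of 7 members tested, and 3 members had an unadjusted p under 0.05 (Tmem119, Csf1r and Cx3cr1). Over all 12271 genes 0% were called by limma, 1068 had an unadjusted p under 0.05, DESeq2 called 6 and edgeR 0. Of these 6, the marker genes of other cells Gpr17 (−1.72) and Tagln (−1.07) were lower in SOD1G93A cultures (DESeq2). Kdm5d (−1.26) and Ddx3y (−1.08) lie on the Y chromosome and were also lower there (DESeq2). The labels do not give the sex of the animals, and its part in the members' values was not tested. Of the 7 members 6 had higher means in SOD1G93A cultures, with a median difference of 0.53 against 0.00214 over all genes. Only P2ry12 was higher without overlap, against 7.07% of all genes. P2ry12 measured 6.09, 7.86 and 5.16 RPM in SOD1G93A replicates 1, 2 and 3 and 2.48, 4.67 and 4.86 in WT, a difference of 0.66 (SE 0.32, adjusted p = 0.598).

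Tmem119 measured 12.1, 13.9 and 9.11 RPM in SOD1G93A astrocytes and 3.47, 3.85 and 10.3 in WT. WT replicate 3 overlapped with the SOD1G93A libraries and the other WT libraries were well below them. The difference was 1.10 (SE 0.38, adjusted p = 0.484), 1.60 without WT replicate 3 and 0.82 without WT replicate 1. Cx3cr1 measured 45.8, 44.1 and 31.3 against 18.4, 26.1 and 36.9, a difference of 0.58 (SE 0.25, adjusted p = 0.543). Csf1r measured 75.6, 79.2 and 55.6 against 34.2, 48.9 and 62.1, a difference of 0.53 (SE 0.22, adjusted p = 0.529). In both, WT replicate 3 lay above SOD1G93A replicate 3. Without WT replicate 3, P2ry12, Cx3cr1 and Csf1r were at 0.83, 0.85 and 0.75, without SOD1G93A replicate 1 at 0.66, 0.47 and 0.46, and without WT replicate 1 at 0.35, 0.32 and 0.30. P2ry13 was at 0.35, Olfml3 at 0.24 and Sall1 at −0.11. WT replicate 1 was the lowest library of P2ry13 (1.49 RPM, against 2.20 and 2.27 in WT replicates 2 and 3) and of Olfml3 (29.3, against 41.8 and 38.1). Sall1 measured 187, 159 and 166 RPM in SOD1G93A replicates 1, 2 and 3.

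Other genes of microglia also tended to be higher in those SOD1G93A libraries, with 0 called. All 14 general myeloid genes tested had higher means, with a median difference of 0.53. Their sum was 522, 553 and 365 RPM in SOD1G93A replicates 1, 2 and 3 and 233, 339 and 416 in WT, so these groups overlapped. The lineage transcription factor genes were higher in 9 of 10, with Irf8 at 0.73. Of 10 astrocyte genes 9 had lower means and 0 were called, with a median of −0.27 and sums of 5230, 4850 and 4272 RPM in SOD1G93A replicates and 5122, 5519 and 6349 in WT. Among genes picked after the values were seen, Tyrobp was at 1.03, Cd68 at 0.74, and the astrocyte genes Gfap at −1.19 (adjusted p = 0.183) and Slc1a2 at 0.29. Markers of other cells differed as well. The 11 oligodendrocyte lineage genes summed to 3564, 3309 and 3345 RPM in SOD1G93A replicates, above every WT library. Of 9 tested, 4 were higher, among them Olig1 (means 2122 and 1799 in WT) and Olig2 (969 and 868), and 5 lower. The lower ones included Gpr17 (15.1 and 49.5 in WT), Sox10 (18.0 and 34.6) and Pdgfra (66.3 and 89.8). The 9 pericyte and fibroblast genes summed to 92.2, 91.3 and 78.97 against 128, 154 and 164, with all 4 tested lower. DESeq2 called Gpr17 (−1.72, adjusted p = 4.68e-14) and the pericyte and fibroblast gene Tagln (−1.07, adjusted p = 1.06e-07) lower. The part of any of these cells in the members' difference was not tested.

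In activated astrocytes, limma, DESeq2 and edgeR called 0 of 6 members tested between genotypes, and 0 had an unadjusted p under 0.05. Over all 12098 genes 0.645% were called by limma and 2464 had an unadjusted p under 0.05. All 6 members had lower means in SOD1G93A cultures, and all overlapped. Csf1r measured 47.8, 34.4 and 37.5 RPM against 42.8, 67.7 and 37.4 in WT, a difference of −0.23 (SE 0.16), with WT replicate 2 above all the others. P2ry12 was at −0.31, Olfml3 at −0.19, Cx3cr1 at −0.14, Tmem119 at −0.12 and Sall1 at −0.10. Without WT replicate 2, 4 of the 6 had higher means in SOD1G93A cultures, and without SOD1G93A replicate 2 Tmem119 was at 0.15. The sum of the general myeloid genes was 447, 326 and 362 RPM in SOD1G93A replicates and 346, 547 and 332 in WT, with WT replicate 2 highest there as well. Whether a genotype difference in the members depends on cell type or activation was not tested.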

How the data were processed

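The authors aligned strand-specific polyA libraries to mm10 with STAR 2.7.3a, counted reads with RSEM and deposited, for each of 6 pairs of groups, a normalized signal per library, the read count divided by the DESeq2 size factor. Whole reads were recovered in every library (tolerance 0.001) and scaled to the same total (RPM). The deposited signal, as log2(value + 1), was tested with limma 3.58.1 and an intensity trend on the 6 libraries of each comparison, over all genes with a mean of at least 10, with Benjamini-Hochberg adjustment (R 4.3.3). Adjusted p-values in the text are limma's unless another tool is named. Alternatives were DESeq2 1.42.0 and edgeR 4.0.16 on recovered reads, other pseudocounts, filters, scalings and limits, a replicate block and leaving out each library. An exact test of 3 against 3 libraries cannot go below 0.10. Levels per kilobase used GENCODE M21 exons on GRCm38. The authors' annotation is not given in the labels or methods read here.

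Members and 18 lists (183 genes in all, of which 2 were found by an older symbol and 1 was not in the tables) were chosen with earlier results of these data known. Named genes were the members, up to 4 genes per list with the highest and lowest changes in WT LPS against quiescent microglia, the most abundant and defining genes of cell type lists, genes overlapping or next to a member, and the gene most like each member. Each list gene named in another comparison was picked after the values were seen. Some genes that these rules select are not reported here. The limma, DESeq2 and edgeR tests were tried on simulated reads for WT LPS against quiescent WT microglia and for quiescent SOD1G93A against WT astrocytes.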

Additional observations from a re-analysis of the deposited data

Results flagged for a closer look

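No member had every SOD1G93A library above every WT library in one cell type or state and below in another. Among other genes named, 3 did, and the difference was not tested. Cd14 had a log2 difference of 0.34 in activated astrocytes and −0.21 in LPS microglia. Cxcl10 had 1.71 in activated astrocytes, a call lost without an intensity trend (adjusted p = 0.0034), and −0.83 in LPS microglia. Saa3 had 0.73 in quiescent astrocytes, −0.76 in LPS microglia and −0.35 in activated astrocytes. Without SOD1G93A LPS replicate 3 the values in LPS microglia were −0.09 for Cd14, −0.38 for Cxcl10 and −0.56 for Saa3. Groups of 3 were not tested for a sample far from the others.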

How the results depend on the processing

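The count of members called stayed within 1.5 times its value in all 102 alternatives, from 7 to 8 in WT LPS against quiescent microglia, 6 to 8 in SOD1G93A LPS against WT quiescent microglia and 0 in the other comparisons. The 7 with at least 10 in every library reflects the removal of Gpr34 by that filter. Of 2270 alternative values for members and other named genes, 2204 kept their direction and side of the limits, 17 came to pass the limits, 32 no longer passed and 17 changed sign, none of which was called. Beyond 1 SD moved 34 of 72 alternative values of members' levels and 20 of 36 of their percents of microglial level. Of 3400 list counts 246, and of 102 counts of all genes called 9, moved by over 1.5 times. SOD1G93A against WT LPS microglia, without 1 library at a time: Sall1 −0.11 to 0.11 and P2ry13 −0.10 to 0.28. Activated against quiescent WT astrocytes: Csf1r −0.02 with edgeR and −0.20 to 0.26 without 1 library, P2ry12 −0.088 to 0.42 and Cx3cr1 −0.36 to 0.22. Activated SOD1G93A against WT astrocytes: Tmem119 −0.30 to 0.15, Cx3cr1 −0.39 to 0.17, Csf1r −0.40 to 0.016 and Olfml3 −0.34 to 0.0091. The cause of these sign changes was not tested. An adjusted p under 0.05 at any fold gave 6185, 1, 5883, 4722, 7 and 879 genes in the 6 comparisons, where the limits used gave 2263, 0, 1718, 1424, 0 and 78. Same-numbered libraries had correlations of −0.436 to 0.059, so the numbers do not pair them (unlike-numbered quiescent astrocytes of the 2 genotypes reached 0.522), and with a replicate block the members called were 8, 0, 8, 0, 0 and 0 and all genes called 2201, 0, 1588, 1423, 0 and 100. Depth limits Gpr34, Siglech and P2ry13 in astrocytes, where libraries held few or 0 reads of them.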

Other observations

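Cspg4, Mbp and Flt1, markers named after other cells, were expressed in quiescent WT microglia and fell with LPS, and of these Cspg4 was high. Cspg4, the NG2 proteoglycan gene used for oligodendrocyte precursors, had a mean of 1229 RPM in quiescent WT microglia, 65.6 after LPS and 61.4 in quiescent WT astrocytes, and fell by 4.01 on the log2 scale (adjusted p = 1e-10, limma). Other precursor genes were low in the same microglia, with Olig1 at 15.3, Pdgfra at 1.77 and Sox10 at 0.436 RPM. Mbp fell by 2.21 and the VEGF receptor gene Flt1, at a mean of 52.8 RPM in quiescent WT microglia, by 3.47. The endothelial genes Cldn5 and Tek had 0 reads in all microglia groups. Of 11 oligodendrocyte lineage genes, 6 were tested and these 2 fell. In SOD1G93A LPS microglia Cspg4 was at 1.06 against WT (adjusted p = 0.571), picked after the values were seen.

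Among other lists in WT LPS against quiescent microglia, the astrocyte genes Gja1 (2.72) and Slc1a2 (2.28) rose of 9 tested, and the pericyte and fibroblast gene Dcn (4.98) rose of 6. Of 3 endothelial genes tested Pecam1 (4.17) and Kdr (1.01) rose. The 1 neuron gene tested, Map2, was at −0.36 and not called, and no neutrophil or lymphocyte gene reached the limit of testing. The cell cycle genes Bub1 (−3.48), Ccna2 (−3.03), Mki67 (−2.43) and Cdk1 (−2.15) fell.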
